A study of Saccharomyces cerevisiae with 12 samples.

Results

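The copy number profile of eco1 mutant yeast was compared with that of wild type at 40 min after release from G1 arrest, with the 2 eco1 libraries kept apart. The comparison used 4 of the 12 libraries of the study, 2 of each strain, and 10123 of the 12165 intervals of 1000 bp (called rows) in the deposited table. Members were the rows of 12 of the 16 nuclear chromosomes, all but I, III, V and IX. Of the 10514 rows of these chromosomes, 384 were left out because a ratio was exactly 0 in at least 1 of the 8 ratio columns, and 7 because they lie in a stretch near the right end of XV that had lost most of its reads in eco1. There the 40-min libraries held 5265 and 3998 reads in wild type and 1153 and 628 in eco1. The chromosomes left out were raised in both eco1 libraries, with chromosome I at 0.523 and 0.540 above the column median in eco1 replicates 1 and 2, against 0.035 and 0.041 in wild type. Each value is a deposited log2 ratio of the 40-min library to a 0-min library, centred on the median of its chromosome in its column, so that 0 is the middle of that chromosome. Coordinates are in sacCer3.

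The eco1 strain, labelled JG2087, carries the point mutation W216G in ECO1, and the wild type control is labelled w303a. The labels give no other allele of either strain, and do not say whether the strains share a background or were made from 1 clone. Cells of both strains grew in YPD, were arrested with α-factor, the pheromone that holds haploid a cells in G1, and were released by washing with a protease, and DNA was taken at 0, 20 and 40 min. Libraries were made with Nextera XT, which cuts and tags DNA with a transposase. Nothing in the labels says that the replicates were separate cultures, so p-values measure only the spread between these samples.

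Eco1 is the acetyltransferase that acetylates cohesin on its Smc3 subunit as DNA is copied, which locks the cohesin ring onto sister chromatids. Cohesin is loaded most densely around centromeres and builds up on the arms between convergent genes. When cells move synchronously through S phase, DNA that has been copied early exceeds DNA not yet copied, so a log2 ratio to G1 cells maps replication timing until copying is complete, when the profile flattens again. Yeast centromeres lie in early regions and chromosome ends are mostly late.

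The 40-min libraries held 7731918 and 5876532 mapped reads in wild type replicates 1 and 2, and 10362815 and 5293237 in eco1 replicates 1 and 2, with a median of 689, 516, 885 and 459 reads per row. Counting error alone gave an SD of 0.070 to 0.087 for the ratio of a row and 0.022 to 0.028 for the mean of a 10-kb window. The SD over the 1055 windows of 10 kb was 0.060 and 0.085 in wild type and 0.052 and 0.086 in eco1. In each strain the shallower library thus had the wider profile. The mean SD of the strains differed by -0.0038 (exact permutation test over libraries, two-sided, p = 1, 2 against 2, which cannot go below 0.33).

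The eco1 replicates stood apart from each other before any comparison with wild type, and their profiles ran in opposite directions. Across the 1055 windows, Pearson's r was -0.298 between the eco1 replicates and 0.383 between the wild-type replicates. Eco1 replicate 1 resembled wild type, with r of 0.360 and 0.398 to its replicates 1 and 2. Eco1 replicate 2 ran against wild type, with r of -0.304 and -0.242. None of these pairs shares a 0-min library, and windows along a chromosome are not independent, so the values are descriptions with no test. The correlation of the eco1 replicates was below 0 in 11 of 12 chromosomes, from -0.641 on XVI to 0.185 on VIII. Eco1 replicate 1 correlated with the wild-type mean above 0 in 12 of 12 chromosomes (0.119 on VIII to 0.692 on XIII), and replicate 2 below 0 in 12 of 12 (-0.480 on IV to -0.115 on XV).

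**Figure D1:**
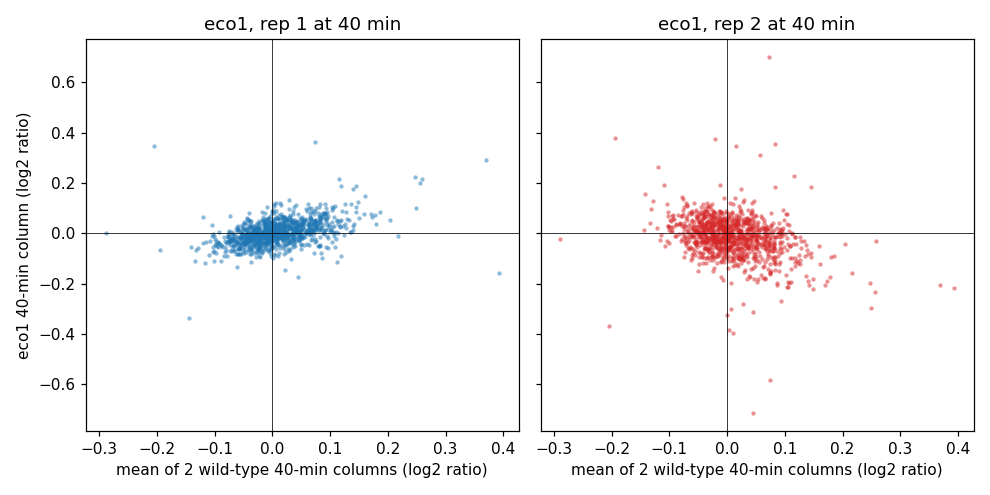
Each point is a 10-kb window of the 12 chromosomes (n = 1055), with the mean of the wild-type 40-min columns on the x axis and the 40-min log2 ratio of eco1 replicate 1 (left) or replicate 2 (right) on the y axis. The cloud tilts upward in replicate 1 and downward in replicate 2.

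The size of the relation to wild type was read as a slope in which noise of the x axis cancels. The covariance of an eco1 column with a wild-type replicate was set over the covariance of the wild-type replicates. The printed slope is the average over both wild-type replicates. The slope was 0.734 for eco1 replicate 1 and -0.854 for replicate 2. With 20-kb windows the slopes were 0.675 and -0.437; by ordinary least squares they were 0.389 and -0.452. The opposition lay in both coarse and fine structure. Between the eco1 replicates r was -0.176 for running means of 25 rows and -0.362 for the remainder of each row after that mean.

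Eco1 replicate 2 at 40 min resembled the eco1 libraries of 20 min more than its own partner. Its r was 0.664 to eco1 20-min replicate 2, with which it shares a 0-min library, and 0.474 to eco1 20-min replicate 1, with which it shares none. Eco1 40-min replicate 1 had r of -0.093 and -0.102 to the 20-min replicates 1 and 2, of which the first shares its 0-min library. The opposite sign of the eco1 replicates was also present in most ratios built on other 0-min libraries. With reads recovered from the ratios and each 40-min library set over any 0-min library, r between the eco1 replicates ran from -0.403 to 0.121 and was below 0 in 10 of 12 pairs of different denominators. Between wild type replicate 2 and eco1 replicate 2 it was below 0 in 12 of 12. The likeness of the other libraries depended on the denominator as well. Between the wild-type replicates r ran from -0.179 to 0.382 and was below 0 in 3 of 12. Between eco1 replicate 1 and wild type replicate 1 it ran from -0.325 to 0.429 and was below 0 in 2 of 12, and with wild type replicate 2 from 0.053 to 0.421.

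Other measures of the libraries moved with this split. Mitochondrial DNA, measured in 86 rows, had a mean log2 ratio of 0.22 and 0.87 in wild type, 0.47 in eco1 replicate 1 and -1.15 in eco1 replicate 2, or 1.17-, 1.83-, 1.38- and 0.452-fold its share at 0 min. At 20 min the values were 0.32 and 0.22 in wild type and -0.26 and -0.39 in eco1. The ratio of a row also moved with the share of its bases in protein-coding genes. In the 733 rows with a coding share of 0 to 20% the mean was 0.047 and 0.139 in wild type, 0.050 in eco1 replicate 1 and -0.091 in replicate 2. In the 3156 rows that are coding throughout it was -0.016 and -0.051, -0.020, and 0.024. Over all rows r with the coding share was -0.165 and -0.352 in wild type, -0.206 in eco1 replicate 1 and 0.210 in replicate 2. With the coding share regressed out of each column, r between the eco1 replicates was -0.285 over windows, close to -0.298 without. The part of mitochondrial DNA and coding share in the results that follow was not tested, except where a value with the coding share regressed out is given.

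**Figure D2:**
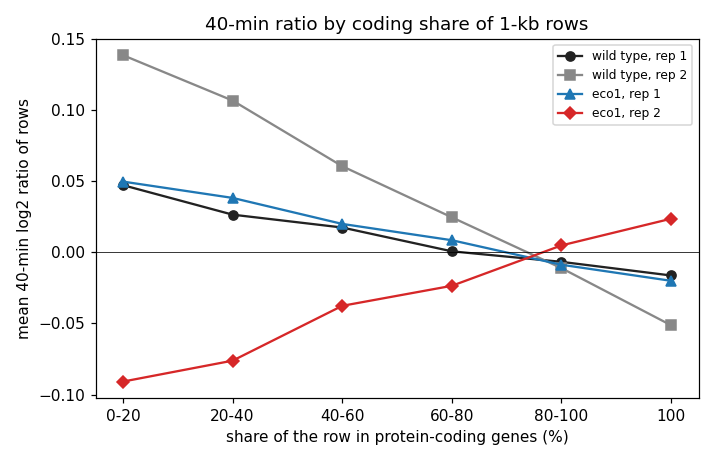
Mean 40-min log2 ratio of rows (y axis) in 6 classes of the share of the row in protein-coding genes (x axis, %), 1 line per library. Wild type and eco1 replicate 1 fall from left to right, and eco1 replicate 2 climbs from -0.091 to 0.024.

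Rows were also sorted by the orientation of the genes beside an intergenic stretch, in classes chosen after the values were seen, and eco1 replicate 2 was lowest between convergent genes. The 716 rows that hold the midpoint of a convergent intergenic stretch averaged 0.043 and 0.104 in wild type, 0.050 in eco1 replicate 1 and -0.099 in eco1 replicate 2. The 2171 rows with a tandem stretch averaged 0.013 and 0.059, 0.022, and -0.044. Rows with a divergent stretch, 1189 in all, averaged -0.0077 and 0.024, -0.00035, and 0.0049. The mean coding share was 60.8% in convergent, 54.0% in tandem and 47.6% in divergent rows. With the coding share regressed out, convergent rows averaged 0.035 and 0.078, 0.040, and -0.083, in the same order among the libraries. Tandem rows then averaged 0.00066 and 0.019, 0.0074, and -0.019. Divergent rows averaged -0.024 and -0.030, -0.020, and 0.038, so eco1 replicate 2 was highest there. The cause of the low value of eco1 replicate 2 in convergent rows was not tested.

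Which windows differed between the strains was tested by limma with all 4 groups of 20- and 40-min columns in 1 fit. No window passed, with 0 of 1055 (0%) at a Benjamini-Hochberg adjusted p under 0.05, and 129 (12.2%) at an unadjusted p under 0.05, of which 41 (3.89%) were higher and 88 (8.34%) lower in eco1. Both eco1 values lay above both wild-type values in 189 windows (17.9%) and below both in 243 (23%). Of the 580 windows with a convergent row, 74 (12.8%) had an unadjusted limma p under 0.05, near the share of all windows. The count changed with eco1 replicate 1. Without it limma called 83 windows, 17 higher and 66 lower, while 0 were called without eco1 replicate 2, the remaining eco1 library being assumed to vary like the other groups.

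Taken one at a time, the eco1 replicates departed from the wild-type mean by different amounts. The SD of the difference over windows was 0.059 for replicate 1 and 0.12 for replicate 2, beside 0.083 between the wild-type replicates and 0.113 between the eco1 replicates. Eco1 replicate 1 lay above the wild-type mean by over 0.1 in 18 windows and below it by over 0.1 in 48, together 6.26%. Replicate 2 did so in 116 and 213 windows, together 31.2%. The wild-type replicates differed from each other by over 0.1 in 11% of windows. Replicate 1 of eco1 was therefore nearer to the wild-type mean than the wild-type replicates were to each other, a comparison that favours it because a mean of 2 columns is less noisy than 1. The eco1 replicates lay on opposite sides of the wild-type mean in 358 windows (33.9%), both above in 311 (29.5%) and both below in 386 (36.6%).

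The windows named next are those with the largest differences of 1 sign in all 4 pairs of libraries, each called by the gene nearest its centre. They were chosen for that difference, and none passed. The name marks a place in the genome, since the ratio measures DNA and not the activity of the gene. Among the 10 higher windows, the difference ran from 0.12 to 0.19 and the limma adjusted p from 0.352 to 0.493, and 7 had an unadjusted p under 0.05. The window of ENT2, an epsin that acts in endocytosis (XII 550001 to 560000), stood at -0.137 and -0.146 in wild type, -0.054 in eco1 replicate 1 and 0.157 in replicate 2, a difference of 0.19 (SE 0.060, limma adjusted p = 0.352). The wild-type values nearly coincide here, and the eco1 values lie 0.21 apart. The window of RPT1, an ATPase of the proteasome base (XI 170001 to 180000), stood at -0.120 and -0.138, -0.058, and 0.129. That of VAC7, a regulator of vacuole size (XIV 520001 to 530000), stood at -0.131 and -0.089, -0.087, and 0.192, with eco1 replicate 1 next to wild type replicate 2. HAC1, the transcription factor of the unfolded protein response (VI 70001 to 80000), marked a window at -0.038 and -0.172, -0.012, and 0.118.

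A further 5 higher windows lay at AGA1, which anchors a-agglutinin to the cell wall, ARO80, a transcription factor for the use of aromatic amino acids, GDB1, the glycogen debranching enzyme, CTI6, of the Rpd3L histone deacetylase complex, and STV1, a subunit of the vacuolar-type ATPase. Their differences ran from 0.12 to 0.15. In 10 of 10 higher windows replicate 2 lay farther from wild type than replicate 1. Over all 1055 windows the median absolute difference from the wild-type mean was 0.033 in replicate 1 and 0.065 in replicate 2. A choice by the largest mean difference therefore favours windows where replicate 2 is farther.

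Among the 10 lower windows the difference ran from -0.35 to -0.20 and the limma adjusted p from 0.352 to 0.396, and 9 had an unadjusted p under 0.05. The largest was at YBL005W-B, a Ty element gene (II 220001 to 230000), where wild type stood at 0.226 and 0.273, eco1 replicate 1 at 0.100 and replicate 2 at -0.296 (SE of the difference 0.106, limma adjusted p = 0.352). Here eco1 replicate 1 lies between wild type and eco1 replicate 2. At YLR227W-A, also a Ty element gene (XII 590001 to 600000), the values were 0.141 and 0.293, -0.012, and -0.158, so both eco1 libraries lay under 0. At YML045W-A, a Ty element gene as well (XIII 180001 to 190000), they were 0.210 and 0.301, 0.20, and -0.233, and eco1 replicate 1 nearly reached wild type replicate 1. These windows kept 6, 5 and 5 rows, and reads from other copies of a repeated element cannot be told apart from those of the named copy.

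The other lower windows were not named for Ty element genes, and whether they hold repeated elements was not examined. That of ADH4, an alcohol dehydrogenase gene near the left end of VII (10001 to 20000), stood at 0.136 and 0.210 in wild type, 0.066 in eco1 replicate 1 and -0.189 in replicate 2. The window of BRE1, the ubiquitin ligase of histone H2B (IV 320001 to 330000), stood at 0.106 and 0.250, 0.071, and -0.173. SPB4, a helicase for assembly of the large ribosomal subunit, MIP6, an RNA-binding protein, and YOL159C-A marked windows with differences of -0.23, -0.21 and -0.23. The SPB4 window kept 7 rows and holds the centromere of VI. The windows of the tRNA genes YNCJ0006W and YNCL0004C differed by -0.21 and -0.20. At YNCL0004C (XII 210001 to 220000, 6 rows) the wild-type values were 0.204 and 0.205, eco1 replicate 1 stood at 0.051 and replicate 2 at -0.044, which gave the smallest SE of the 10 lower windows, 0.049. Replicate 2 was again farther from wild type in 10 of 10, which the choice by the largest mean difference favours here too.

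The named windows differed in coding share as the libraries do. The mean share was 81.8% in the higher and 59.4% in the lower windows, beside 72.2% over all windows. Their sizes depended on the processing, without a change of direction in the settings named here. With 20-kb windows, 10 of the 10 higher and 5 of the 10 lower differences were smaller by over 1.5 times. With reads set over averaged wild-type G1 reads in both strains this held for 7 and 6, and the differences ran from 0.042 to 0.13 and from -0.22 to -0.076. With rows far from the running median left out, the VAC7 difference of 0.16 was 0.034 and the SPB4 difference of -0.23 was -0.043.

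**Figure D3:**
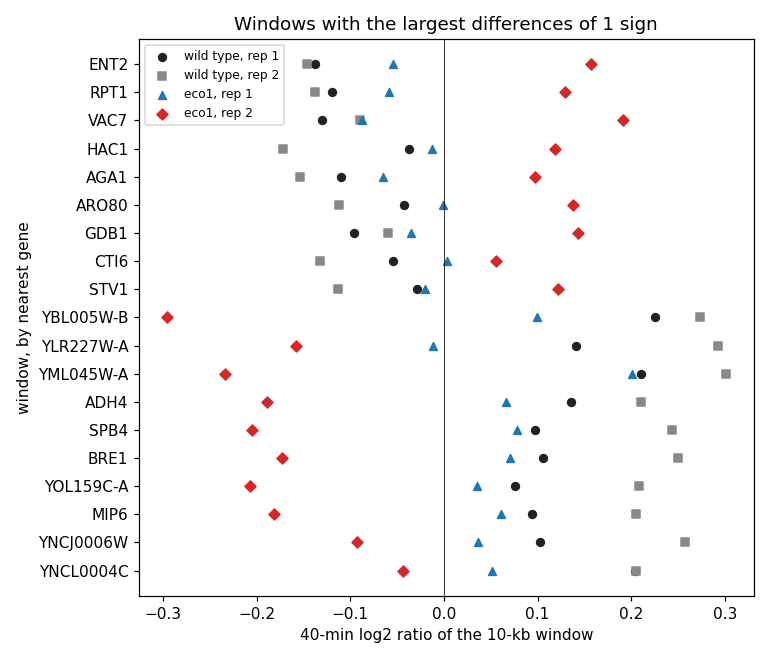
The 40-min log2 ratio (x axis) of 9 of the 10 higher and of the 10 lower windows (y axis, by nearest gene), 1 symbol per library. Eco1 replicate 2 lies farthest from wild type in every window shown, and eco1 replicate 1 lies between it and wild type. At YNCL0004C the wild-type symbols coincide.

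The extremes of wild type were set beside eco1 as well. The 5 highest windows of the wild-type mean were those of YML045W-A, YBL005W-B, YMR050C, YLR227W-A and YNCL0004C, all but YNCL0004C named for Ty element genes. At YMR050C (XIII 370001 to 380000) wild type stood at 0.102 and 0.392, eco1 replicate 1 at 0.224 and replicate 2 at -0.195. The 5 lowest were those of ENT2, GND2, AGA1, RPT1 and YJR027W, the last also a Ty element gene. At YJR027W (X 470001 to 480000, 5 rows) wild type stood at -0.119 and -0.123, eco1 replicate 1 at -0.038 and replicate 2 at 0.020. At GND2, a 6-phosphogluconate dehydrogenase gene (VII 1000001 to 1010000), wild type stood at -0.116 and -0.151, eco1 replicate 1 at -0.111 and replicate 2 at 0.040. Windows chosen for an extreme in wild type tend to be less extreme in any other library, and no test was run on them. Of the 5 windows where the eco1 replicates differed most, that of DPB11, which acts in the initiation of replication (X 260001 to 270000), is not named for a Ty element gene. It stood at 0.066 and 0.120 in wild type, 0.100 in eco1 replicate 1 and -0.268 in replicate 2, so replicate 1 lay among the wild-type values.

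At chromosome ends both eco1 replicates lay on the same side of wild type. The 566 rows within 30 kb of the 24 ends averaged 0.029 and 0.059 in wild type, -0.017 in eco1 replicate 1 and -0.030 in replicate 2. The groups did not overlap and the difference was -0.067 (exact permutation test over libraries, two-sided, p = 0.33, the smallest that 2 against 2 allows). Of the 81 windows there, both eco1 values lay below both wild-type values in 32 and above in 5, beside 23% and 17.9% of all windows. At an unadjusted limma p under 0.05, 19 were lower and 2 higher, 25.9% together against 12.2% of all windows, and 0 passed after adjustment. The median difference of these windows was -0.060 in eco1 replicate 1 and -0.090 in replicate 2. The mean coding share of these rows was 51.2%, beside 73.4% of all rows, and with the coding share regressed out the difference was -0.031, with eco1 replicate 2 (-0.0019) closer to wild type (0.014 and 0.013) than replicate 1 (-0.034).

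By distance in steps of 5 kb, both eco1 libraries lay below both wild-type libraries from 5 to 45 kb. In the outermost 5 kb the groups overlapped, at -0.019 and 0.011 in wild type, -0.0062 in eco1 replicate 1 and 0.121 in replicate 2. From 5 to 10 kb wild type stood at 0.013 and 0.109 and eco1 at -0.0075 and -0.028. From 10 to 20 kb wild type stood at 0.045 and 0.090 and eco1 at -0.012 and -0.074. From 20 to 30 kb the values were 0.031 and 0.025 in wild type and -0.026 and -0.029 in eco1, a span in which the replicates of each strain nearly coincided. Between 30 and 50 kb the gap had narrowed to 0.0064 and 0.0066 against -0.015 and -0.020, and from 50 to 100 kb the 4 values lay between -0.0084 and -0.0042.

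**Figure D4:**
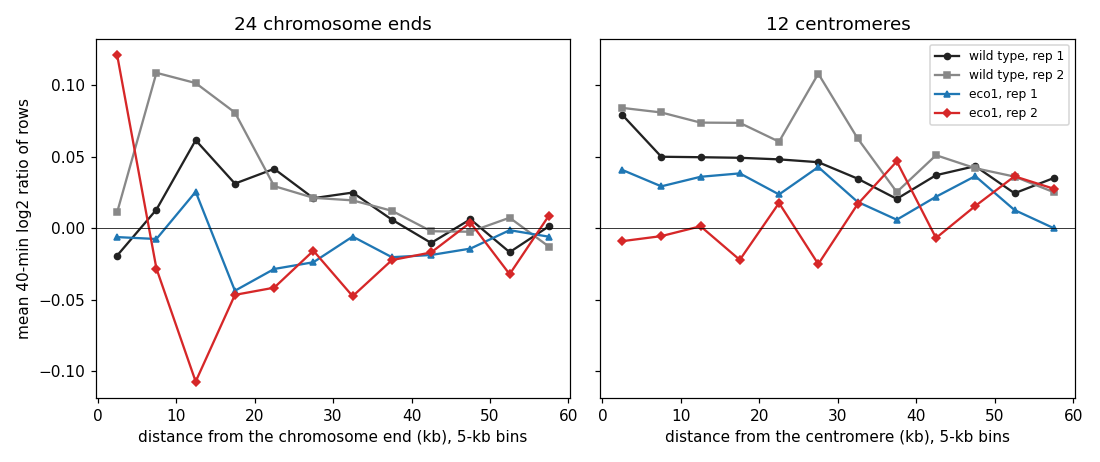
Mean 40-min log2 ratio of rows (y axis) by distance in kb (x axis) from the 24 chromosome ends (left) and the 12 centromeres (right), 1 line per library. At the ends both eco1 libraries lie below both wild-type libraries from 5 to 45 kb. At centromeres the lines keep the order wild type, eco1 replicate 1, eco1 replicate 2 up to 35 kb.

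The 429 rows 10 to 30 kb from an end, a range chosen after the values were seen, averaged 0.038 and 0.056 in wild type, -0.020 in eco1 replicate 1 and -0.050 in replicate 2, a difference of -0.081. With the coding share regressed out they stood at 0.026 and 0.019 in wild type and -0.033 and -0.028 in eco1, a difference of -0.053, so the groups still did not overlap. Recovered reads showed on which side of the ratio the difference lies. In log2 reads centred like the ratios, the strains differed by -0.011 in the 0-min libraries and by -0.090 in the 40-min libraries, which stood at -0.405 and -0.385 in wild type and -0.469 and -0.501 in eco1.

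End by end, the mean of eco1 was below that of wild type at 24 of 24 ends, beside 55.5% of all 20-kb windows. Both eco1 values lay below both wild-type values at 16 ends (24.2% of all 20-kb windows do so) and above both at 0 (17.9%), and the groups overlapped at 8. Eco1 replicate 1 was below the wild-type mean at 23 ends and replicate 2 at 21, beside 51.3% and 58.8% of all 20-kb windows. The median difference was -0.082. It was largest at the right end of VIII, where 6 rows stood at 0.299 and 0.244 in wild type and -0.015 and -0.213 in eco1, and smallest at the left end of II, where 20 rows stood at 0.046 and 0.022 in wild type and -0.024 and 0.078 in eco1, which overlap. The right end of XIII also overlapped, at -0.0031 and -0.014 in wild type and -0.056 and 0.0083 in eco1. At the left end of VIII, 20 rows stood at 0.072 and 0.092 in wild type and -0.0013 and -0.058 in eco1, without overlap.

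**Figure D5:**
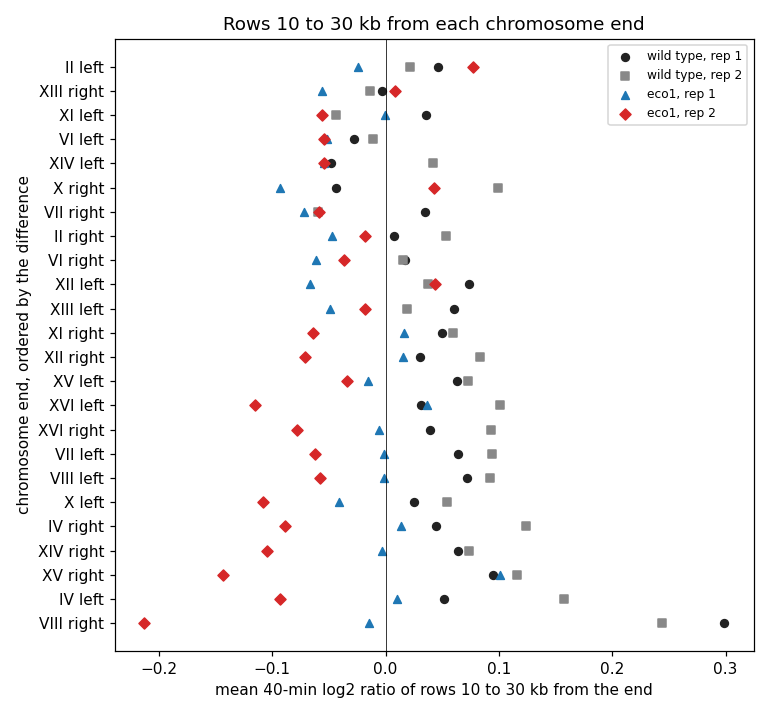
Mean 40-min log2 ratio (x axis) of the rows 10 to 30 kb from each of 24 chromosome ends (y axis, ordered by the difference of the strain means), 1 symbol per library. Eco1 replicate 1 lies left of the wild-type mean at 23 ends and replicate 2 at 21.

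At centromeres both eco1 replicates also lay below wild type, but by unequal amounts. The 84 rows within 2.5 kb of the 12 centromeres averaged 0.087 and 0.090 in wild type, 0.045 in eco1 replicate 1 and -0.031 in replicate 2, a difference of -0.081 (exact permutation test over libraries, two-sided, p = 0.33, the smallest possible). The wild-type libraries nearly coincide, and eco1 replicate 1 lies between them and replicate 2. The difference from wild type was -0.119 in eco1 replicate 2 alone and -0.043 in replicate 1 alone. Of the 19 windows at centromeres, 10 lay below both wild-type values in both eco1 libraries and 0 above, beside 23% and 17.9% of all windows, and 5 were lower at an unadjusted limma p under 0.05 (26.3%, beside 12.2% of all windows), with 0 after adjustment. Centromeric rows are near the average in coding share, at 67.4% against 73.4%.

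Single centromeres differed among themselves. The mean of eco1 was below that of wild type at 11 of 12, beside 56% of all windows. The groups did not overlap at 4, those of IV, VII, XII and XIV, where eco1 was lower, and at 0 was it higher without overlap. Both eco1 values lay below both wild-type values in 23% of all windows, and the groups did not overlap in either direction in 40.9%. These are windows of 10 kb, while a centromere has 6 to 8 rows. The count of 4 of 12 was not tested against these shares. The centromere of XIV stood at 0.160 and 0.190 in wild type, 0.125 in eco1 replicate 1 and -0.149 in replicate 2. That of XII stood at 0.180 and 0.138, 0.069, and -0.038, and that of IV at 0.131 and 0.109, -0.0022, and -0.027. At the centromere of IV the eco1 replicates lay close together. The centromere of X showed nearly no mean difference, at 0.012 and 0.0076 in wild type, -0.033 in eco1 replicate 1 and 0.053 in replicate 2, and at those of XV and XVI replicate 2 also lay above replicate 1. Farther out, at 20 to 40 kb, the 469 rows stood at 0.037 and 0.064 in wild type and 0.023 and 0.014 in eco1. In recovered reads the strains differed at centromeres by 0.035 in the 0-min libraries, where eco1 was higher, and by -0.045 at 40 min, so the difference in the ratio is shared between them.

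Gene lists, from which rows near centromeres and ends were not removed, followed the split of the eco1 replicates. The windows of the histone pairs HTA2-HTB2 and HHT1-HHF1 have centres 2.5 and 16.1 kb from the centromere of II. The 30 rows around the 8 core histone genes, divergent pairs whose products package new DNA, stood at 0.078 and 0.092 in wild type, 0.099 in eco1 replicate 1 and -0.052 in replicate 2. Replicate 1 lay above both wild-type libraries and replicate 2 below them, so the difference of -0.061 overlapped (exact permutation p = 1). The HTA1-HTB1 pair, for histones H2A and H2B, showed this most, at 0.070 and 0.043, 0.126, and -0.092. The HHT1-HHF1 pair, for H3 and H4, departed from this, with both eco1 values (0.066 and -0.0035) below wild type (0.129 and 0.119). At HTA2-HTB2 eco1 replicate 1 (0.120) lay between the wild-type values (0.071 and 0.151), and replicate 2 (-0.021) lay below them. The pairs also differed over time. At HTA1-HTB1 wild type stood at 0.275 and 0.244 at 20 min, above its 40-min values, while at HHT2-HHF2 it stood at -0.044 and -0.076 at 20 min and at 0.047 and 0.052 at 40 min. Eco1 replicate 1 went from 0.026 to 0.126 at HTA1-HTB1 and from 0.110 to 0.066 at HHT1-HHF1.

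Rows around 231 tRNA genes stood at 0.030 and 0.070 in wild type, 0.028 in eco1 replicate 1 and -0.048 in replicate 2. The difference was -0.059 (exact permutation p = 0.33), of which eco1 replicate 1 alone gave -0.021. Of their 274 windows 6 were higher and 24 lower at an unadjusted limma p under 0.05, together 10.9%, near the background of 12.2%. Rows around 125 ribosomal protein genes stood at 0.025 and 0.048, 0.014, and -0.053. That difference was -0.056 (exact permutation p = 0.33), with -0.023 from eco1 replicate 1 alone, and 3 windows were higher and 19 lower of 174, together 12.6%. Of the 39 rows of the rDNA array on XII, which codes for ribosomal RNA and is repeated, 5 passed the row filter. They stood at -0.163 and 0.320 in wild type and -0.059 and -0.129 in eco1, so wild type spanned eco1.

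Classes of rows taken from the 20-min columns, used as a measure of replication timing, gave the split once more. The early class held the 1008 rows highest in the wild-type 20-min column of the other replicate, and the late class the 1007 lowest. Early minus late was 0.040 and 0.077 in wild type, 0.045 in eco1 replicate 1 and -0.070 in replicate 2 (difference -0.071, exact permutation p = 0.67). The 2 versions of the early class shared 589 rows and those of the late class 153, so the late class was poorly defined by these libraries. In the early class alone the means were 0.032 and 0.078 in wild type, 0.037 in eco1 replicate 1 and -0.048 in replicate 2. With the wild-type classes, early minus late in the 20-min columns was 0.140 and 0.159 in wild type and 0.0082 and 0.013 in eco1. The highest and lowest rows of the eco1 20-min columns were thus not shown to be early and late rows. Those columns rose with the coding share (r of 0.219 and 0.149). With classes from the eco1 20-min columns the contrast was -0.046 and -0.142 in wild type, -0.036 in eco1 replicate 1 and 0.238 in replicate 2, and the difference turned to 0.195. With either source of classes, eco1 replicate 1 lay beside wild type replicate 1, and replicate 2 had the opposite sign.

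The summits of the wild-type 20-min profile behaved alike. At 333 and 465 peaks of at least 0.1 in prominence, taken from 20-min replicates 1 and 2, the summit exceeded the rows 20 to 30 kb away by 0.010 and 0.031 in wild type and by 0.016 in eco1 replicate 1, and replicate 2 stood at -0.042 (exact permutation p = 0.67). Eco1 replicate 2 averaged -0.059 at the summit row and 0.0073 and 0.010 at 3 kb on each side. Eco1 replicate 1 averaged 0.021 at the summit row and -0.0016 and -0.0053 at 3 kb. In eco1 the contrast thus lay within 3 kb of the summit, and whether it reflects replication timing was not tested. At 126 and 211 peaks of at least 0.2, summit minus the rows 20 to 30 kb away was 0.024 and 0.064, 0.030, and -0.061. The 40-min profiles themselves held 92 and 273 peaks of that height in wild type, 98 in eco1 replicate 1 and 322 in eco1 replicate 2, and the shallower library of each strain had more. Of the 98 peaks of eco1 replicate 1, 81.6% lay within 10 kb of a peak of wild type replicate 2. For wild type replicate 1, which has fewer peaks to match, the share was 33.7%, and for eco1 replicate 2 it was 57.1%. The share that peaks placed at random would give was not computed.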

How the data were processed

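Genomic DNA of 2 strains at 0, 20 and 40 min was sequenced in 12 Nextera XT libraries. Per the submitters' processing notes, CASAVA 1.8.2, Bowtie and the build sacCer3 were used, and their roles and parameters are not given in the sources used here. The authors deposited 1 table of 1000-bp rows. Its ratio columns are log2 values as deposited, of the later library over a 0-min library, which was taken to come from the matching strain and replicate number. Smooth columns, a score as deposited, were not used. The log base and read scaling were settled from the values, and whole reads were recovered from pairs of ratios by taking the solution with the fewest reads.

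Rows were centred on the median of each chromosome in each column and averaged in windows of 10 kb. Limma 3.58.1 (R 4.3.3) was fitted on 1213 windows of 16 chromosomes in 4 groups of strain and time, with no covariate and Benjamini-Hochberg adjustment at 0.05, and with 4 residual and 3.9 prior degrees of freedom. Both the fit and the read recovery were tested on simulated data. Single values per library were compared by exact permutation tests (Python 3.11.15, scipy 1.17.1, pandas 2.3.3). Members, lists and the rule for named windows were chosen with earlier results of these data known. The rule took, on the 12 chromosomes, the 10 windows with the largest difference in each direction and of 1 sign in all 4 pairs of libraries, any window past the threshold, the 5 highest and 5 lowest in wild type, the 5 where the eco1 replicates differed most, and the windows of the histone pairs. At most 1 window was taken per 30 kb, and the outermost 10 kb, windows under 5 rows and the rDNA were left out. Of the 10 higher windows, 1 is counted but not reported here by name or value. Gene names, coding share and gene orientation came from a RefSeq gene table of assembly R64. Centromeres were placed between the innermost genes of the left and right arms by systematic name. Alternatives were other window sizes, centrings, row filters, scalings, denominators, a replicate block and each library left out.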

Additional observations from a re-analysis of the deposited data

Results flagged for a closer look

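The centromere of chromosome VII was the single result in which both strains' libraries were ordered without overlap in opposite ways at 20 and 40 min. Its 6 rows differed between eco1 and wild type by -0.054 at 40 min, with 0.060 and 0.046 in wild type and 0.019 and -0.021 in eco1. At 20 min wild type stood at -0.066 and -0.025 and eco1 at 0.0032 and 0.022, so eco1 was higher there. The difference between the times was not tested for this centromere.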

How the results depend on the processing

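The count of windows past the threshold, 0, was 5 with centring on the median over all nuclear windows and 10 with no centring, all lower in eco1, and 1 with the 40-min columns only. With each library left out it ran from 0 to 83, and it was 0 in the other settings run. The 1 window called with the 40-min columns only, and also without either wild-type 20-min library, was that of YHR214C-B (VIII 540001 to 550000, -0.58), named after its value was seen. YHR214C-B is a Ty element gene, so reads from other copies cannot be told apart from those of this copy. Its window overlaps the 6 rows at the right end of VIII that gave the largest difference among chromosome ends. The difference at YHR214C-B is larger than that of any named lower window. The rule for named windows left it out, since it kept under 5 rows. The replicate block gave 0 windows past the threshold. Replicate deviations of the same number had r = -0.091 between the strains at 40 min, so the numbers were not shown to pair the strains. Within a strain the 20- and 40-min columns share a 0-min library, with r = 0.535 in wild type and 0.182 in eco1, and the fit of 4 groups treats them as independent. The profile contrast, -0.0038, ran from -0.021 to 0.013 with a library left out, and was above 0 without wild type replicate 2 (0.0089) and without eco1 replicate 1 (0.013). The slopes on wild type, 0.734 and -0.854, were 0.389 and -0.452 by least squares and 0.675 and -0.437 with 20-kb windows. Early minus late, -0.071, was -0.136 with classes from the mean of both wild-type columns. It was 0.195 with classes from the eco1 20-min columns, which were not shown to hold early and late rows. The rDNA difference, -0.172, ran from -0.413 without wild type replicate 1 to 0.069 without wild type replicate 2, and the histone difference, -0.061, from -0.137 without eco1 replicate 1 to 0.014 without eco1 replicate 2. The chromosome-end difference, -0.067, was -0.031 with the coding share regressed out and -0.089 in reads without a denominator, and that of rows 10 to 30 kb from an end, -0.081, was -0.053 with the coding share regressed out, settings chosen after the data were seen. Of 29 named windows, 24 kept their direction, though not their size, in up to 22 alternatives each. This count was partly fixed in advance. The higher and lower windows were chosen for 1 sign in all 4 pairs, so leaving out a library could not turn them. Alternatives that changed only the fit left each difference as it was. The others turned, YDR210W-B to 0.121 with the filter on rows over 4 MAD from the running median and 0.103 without eco1 replicate 2, DPB11 to 0.0073, HTA2 to 0.023 and HTB1 to 0.067 without eco1 replicate 2 (-0.308, -0.361, -0.108 and -0.115 without eco1 replicate 1), HTB1 to 0.022 with 20-kb windows and 0.0067 over the wild-type 0-min mean, and SIW14 to -0.016 without wild type replicate 2 (0.097 without replicate 1). The causes were not tested. A correction for base composition was not run, since no genome was used here. An SD from the covariance of replicates could not be given for eco1, whose covariance is below 0. Depth gave a counting SD of up to 0.028 per window.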
